A study of Mus musculus with 24 samples.

Results

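The transcripts of 76 cytosolic ribosomal protein genes were followed in mouse muscle stem cells, which carry Pax7 and repair injured muscle. Members were taken by symbol, as genes named Rpl or Rps with a number and an optional a, l or x, plus Rplp0, Rplp1, Rplp2 and Rpsa, without pseudogenes. The pattern matched 78 of the 17111 genes in the table. The paralogs Rps27l and Rps4l were set apart, and each of the 76 remaining genes, 30 of the small and 46 of the large subunit, reached 1 or more in 4 or more libraries, the filter for testing. Bulk RNA sequencing gave 24 libraries in 6 groups of 4. WT cells (labelled L2A-WT) came from mice with intact Lamp2a, the splice form whose protein lets lysosomes take up substrates of chaperone-mediated autophagy. KO cells came from mice of the genotype labelled L2A-Pax7CreER, in which an inducible Cre driven by Pax7 targets Lamp2a. Each genotype was sampled uninjured (day 0) and 1 and 4 days after 50 µL of cardiotoxin at 10 µM, a venom peptide that destroys muscle fibres, was injected. No group carries Cre with intact Lamp2a, so effects of Cre and of Lamp2a loss cannot be told apart in any genotype comparison. Whether a group's libraries come from separate animals is not stated in the labels, so p-values measure the spread between these libraries, which may be technical.

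The cytosolic ribosome joins a small subunit, which reads the mRNA, to a large subunit, which forms the peptide bond, and each of its proteins is needed in about the same number of copies per ribosome. Ribosomal protein mRNAs belong to the TOP class: they begin with a cytosine followed by an unbroken run of pyrimidines, through which mTORC1 and the binding protein LARP1 set how much of them is translated. Quiescent muscle stem cells are small and make little protein, and on activation they grow, build ribosomes and enter the cell cycle.

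Promoter sequences were found for 56 of the 76 members in RefSeq (GRCm38.p6), each reaching from 250 bases before the annotated start to 50 after it. The starts are those of the annotation and were not measured in these cells. A cytosine at the start followed by at least 4 bases of C or T was present in 12 of the 56 members (21.4%) and in 2.23% of 16519 promoters. When the run could begin within 5 bases of the start, 25 members (44.6%) and 18.8% of all promoters held it, so the annotated start of 31 members lay at no such run. CCGGAAG, the core bound by ETS factors such as GABPA, was found on either strand of the 300-base window in 21 members (37.5%) and in 12.4% of all promoters. AAGATGGC, the YY1 core, was found in 7.14% against 3.29%, and TATAAA in 8.93% against 12.9%. The sequences below run from 40 bases before the start to 20 after it, and capitals mark the pyrimidine run where there is one of at least 5 bases. They belong to 5 genes whose changes are described below with values in each library or group: Rps27 (chr3:90213629-90213688, minus strand) with a run across the start, Rps2 (chr17:24720023-24720082, plus strand) and Rpl12 (chr2:32961672-32961731, plus strand) with a shorter run after it, and Rplp0 (chr5:115559427-115559486, plus strand) and Rpsa (chr9:120127726-120127785, plus strand) with none.
Rps27: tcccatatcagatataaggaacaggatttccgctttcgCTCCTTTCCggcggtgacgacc
Rps2: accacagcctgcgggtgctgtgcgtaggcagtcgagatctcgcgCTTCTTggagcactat
Rpl12: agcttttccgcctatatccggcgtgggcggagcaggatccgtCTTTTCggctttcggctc
Rplp0: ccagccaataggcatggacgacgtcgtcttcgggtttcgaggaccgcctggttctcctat
Rpsa: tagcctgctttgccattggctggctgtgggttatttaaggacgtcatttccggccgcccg

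Libraries held 11.58 to 22.47 M counts. Summed markers of muscle stem cells (12 genes) had deposited values of 2698 to 7498 at days 0 and 1 and of 1327 to 1506 at day 4, while 12 macrophage markers summed to 6.94 to 112 at days 0 and 1 and to 1161 to 1831 at day 4. Single stem cell markers went in both directions (limma, adjusted p under 0.05). From day 0 to day 4, 2 rose and 8 fell in WT (25.7% and 18.9% of all genes). In KO 2 rose and 9 fell (22.3% and 18.2%). From day 0 to day 1, 5 rose and 3 fell in WT (27.7% and 24.9%). In KO 7 rose and 4 fell (24.2% and 21.5%). Fewer cells of a type and less RNA per cell cannot be told apart in such bulk samples. The 7 myofibre markers in the table summed to 149 to 208 in WT and 13.2 to 47.1 in KO at day 1, and to 4.29 to 9.58 in WT and 27.4 to 71.3 in KO at day 0. The 8 fibro-adipogenic markers summed to 634 to 1039 in WT and 1650 to 1916 in KO at day 0, with Pdgfra at 0 counts in every uninjured WT library. Of the 8, 2 passed as higher in KO at day 0 and 0 as lower (4.82% and 4.93% of all genes). Their log2 fold changes ran from -2.38 to 2.83. The 8 markers summed to 296 to 413 in WT and 396 to 772 in KO at day 1, and to 1611 to 2418 and 1227 to 3265 at day 4. The 5 endothelial markers in the table went from 141 to 258 in WT and 82.9 to 177 in KO at day 0 to 5.89 to 18.01 and 9.05 to 13.9 at day 4. The part of these differences in the results for ribosomal proteins was not tested. Lamp2 counted over all its splice forms, which does not check the deletion of the A form, ranged from 509 to 870 in WT and 529 to 608 in KO at day 0, from 371 to 457 and 290 to 457 at day 1, and from 197 to 226 and 154 to 266 at day 4.

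Ribosomal protein transcripts made up between 1.70% and 7.66% of all counts in a library. Uninjured WT libraries gave 3.34%, 3.97%, 4.04% and 4.12%, and uninjured KO libraries 4.201%, 4.59%, 4.94% and 6.32%, all above WT. At day 1 the shares were 4.66% to 6.03% in WT (mean 5.46% ± 0.582, SD, n = 4) and 5.94% to 7.66% in KO (6.80% ± 0.702), which overlapped in their ranges. At day 4 they were lower in both genotypes, 2.39% to 2.60% in WT (2.50% ± 0.0879) and 1.70% to 2.04% in KO (1.85% ± 0.142), with every KO library below every WT library. Between days, mitochondrially encoded transcripts moved in the opposite direction to these shares. In both genotypes their mean share of counts was lowest at day 1 and highest at day 4. The 13 such genes took 1.90% to 9.98% of counts before day 4, 20.5% to 22.95% in WT at day 4 and 32.7% to 34.0% in KO at day 4. With those genes left out, the day 4 means were 3.20% in WT and 2.77% in KO. In the deposited values, which also carry the authors' scaling factor (1.16 to 1.30 in WT and 0.744 to 0.887 in KO at day 4), the order of the genotypes at day 4 was the other way round: the median member stood at 224 ± 17.9 in WT and 252 ± 15.6 in KO. The median member ranked between the 97.5th and the 99.0th percentile of all genes tested in every library, so the middle of the family stayed near the top of the expression range throughout.

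**Figure D1:**
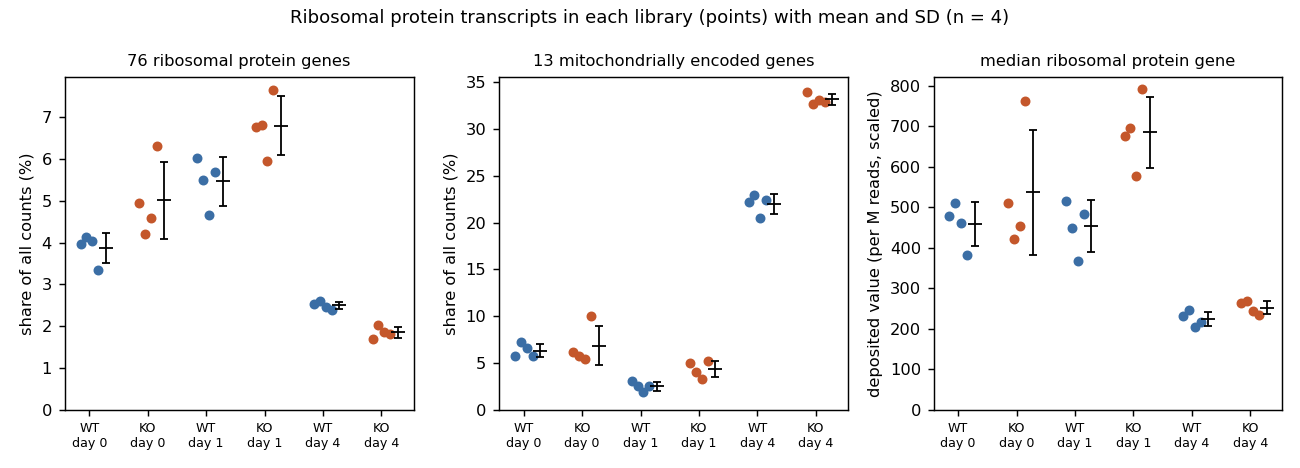
Left, share of all counts in the 76 ribosomal protein genes (%); middle, share in the 13 mitochondrially encoded genes (%); right, deposited value of the median ribosomal protein gene. Points are libraries, blue for WT and orange for KO, and the bar gives mean and SD of 4 libraries. Group means of the ribosomal protein share were highest at day 1 within each genotype (libraries 4.66% to 7.66%) and lowest at day 4 (1.70% to 2.60%), where the mitochondrial share reached 20.5% to 34.0%.

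In WT cells members changed in both directions between days 0 and 1. At an adjusted p under 0.05 (limma on log2 of the value plus 1, Benjamini-Hochberg over 16985 genes), 23 members rose (27.7% of all genes rose), 11 fell (24.9% of all genes fell) and 42 did not pass the test. The share of members that rose, 30.3%, was near that of all genes, and the share that fell, 14.5%, was below it. The median member changed by 0.13 on the log2 scale, against -0.01 over all genes. This change is in deposited values, whose scaling factor in WT was 0.913 to 0.965 at day 0 and 1.09 to 1.15 at day 1. The members' share of counts, which does not use that factor, rose without overlap, from 3.34% to 4.12% at day 0 to 4.66% to 6.03% at day 1. Rpsa, Rpl29 and Rplp0 were among the genes that rose most, and those that fell most were Rpl12, Rps27, Rpl37 and Rpl39. Rplp0, the base of the ribosomal stalk on which elongation factors act, had deposited values of 762, 954, 1151 and 1232 at day 0 and of 1909, 2217, 2236 and 2421 at day 1, with no overlap (log2 fold change 1.12 ± 0.12 SE, adjusted p = 2.8e-08). Rpsa, a small subunit protein at the mRNA exit side that is also known as the laminin receptor, went from 600 to 666 to 1309 to 1609 (1.21 ± 0.12, adjusted p = 9.5e-09). Rps27, a zinc finger protein of the small subunit, went the opposite way, from 838, 843, 1029.8 and 1065 to 285, 337, 353 and 422 (-1.44 ± 0.17, adjusted p = 1.5e-07). Rpl12, which sits at the stalk base beside Rplp0, fell from 134, 159, 184 and 197 to 40.3, 49.9, 50.0 and 52.8 (-1.78 ± 0.16, adjusted p = 1.8e-09). In both falling genes every day 1 library lay below every day 0 library.

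In KO cells more members passed the test as higher over the same step in deposited values, an order of the genotypes that was the other way round under quantile normalization. Here 50 rose (24.2% of all genes rose), 1 fell (21.5% of all genes fell) and the median member changed by 0.50. Quantile normalization, which forces the same distribution on every library, gave 24 higher and 10 lower in KO, with a median of 0.114, and 29 higher and 13 lower in WT, with a median of 0.159. All 23 members that rose in WT rose in KO, where they were 46% of the 50 risers. Of the 11 that fell in WT only Rps27 fell in KO, from 830, 909, 1106 and 1699 to 422, 526, 545 and 616 (-1.06 ± 0.17, adjusted p = 1.5e-05). The largest rises were in Rps2, which lines the mRNA entry channel (1.74 ± 0.12, adjusted p = 3.9e-11), Rpl3, which reaches into the peptidyl transferase centre (1.70 ± 0.10, adjusted p = 2.2e-12), Rplp0 (1.65 ± 0.12, adjusted p = 6.6e-11) and Rpsa (1.59 ± 0.12, adjusted p = 1.6e-10). Rps2 stood at 157, 158, 161 and 214 in uninjured KO libraries and at 510, 566, 590 and 633 at day 1. Across the 76 members the changes in WT and KO, which share no library, had a Pearson r of 0.904. These points are genes from the same libraries and not independent replicates.

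**Figure D2:**
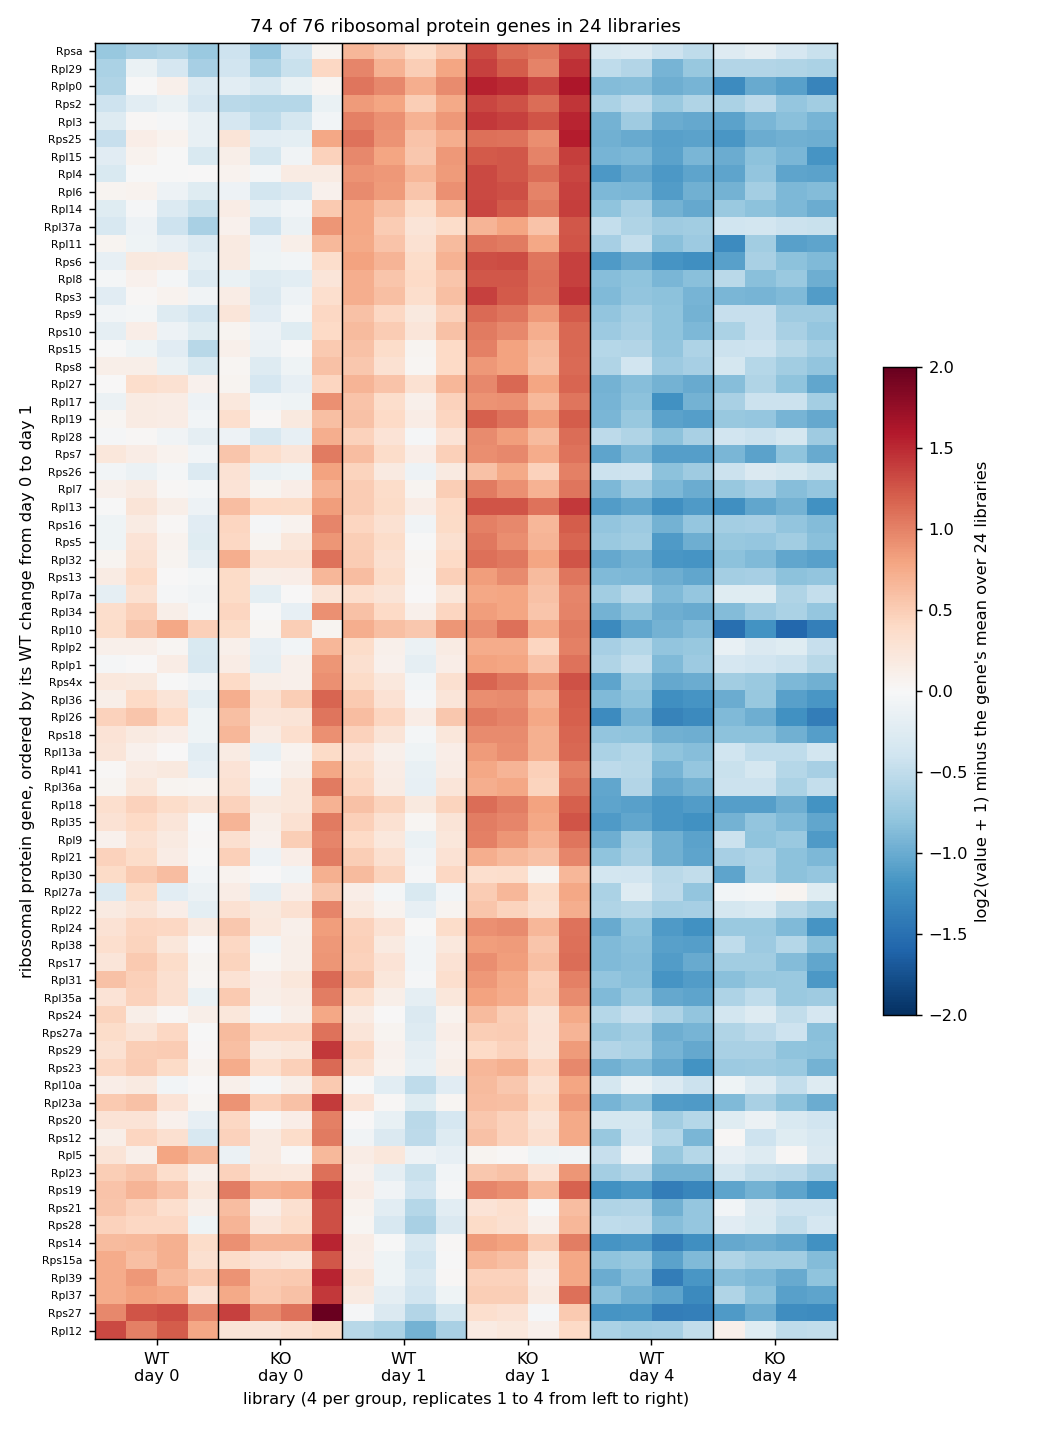
Each row is one of 74 of the 76 ribosomal protein genes, ordered from the largest rise to the largest fall between days 0 and 1 in WT, and each column a library. Colour is log2(value + 1) minus the mean of that gene over the 24 libraries, red above and blue below. Rows at the top, such as Rpsa and Rplp0, were highest at day 1, rows at the bottom, such as Rps27, were highest at day 0, and nearly all rows were lowest at day 4.

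To compare members with each other, each library was centred on the median of the 76 genes, which takes out any shift they share. Relative to that median, 32 members rose and 15 fell in WT at day 1, where the same centring called 26.6% and 23.1% of all genes. Centring on the mean of the members instead, an alternative chosen after the data were seen, gave 21 and 21. In KO the median centring gave 28 and 18, against 16.6% and 28.9% of all genes, and the mean centring 22 and 23. Rps27 remained the lowest member in both genotypes on this scale except for Rpl12 in WT (Rps27 -1.42 in WT and -1.44 in KO, adjusted p = 6.5e-11 and 8.4e-11), and Rpsa was among the highest in WT (1.23). Rpl39, a short protein in the wall of the peptide exit tunnel, fell by 0.71 in WT and by 0.79 in KO relative to the members (adjusted p = 6.0e-06 and 2.1e-06).

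The members that rose at day 1 tended to be those with a longer coding sequence. Coding lengths (principal coding transcript of GENCODE, GRCm38) ran from 75 bases (Rpl41) to 1257. Spearman's rho between coding length and the change from day 0 to day 1 was 0.53 over the 76 members in WT and 0.61 in KO, given as a description of genes that share libraries. Over 13405 coding genes rho was -0.23 in WT and -0.26 in KO, and over the 6092 other genes in the same range of length it was -0.02 in both. With the length of the whole transcript in place of the coding length, rho over the members was weaker, 0.28 in WT and 0.35 in KO. The 25 shortest members, up to 399 bases, had a median change of -0.05 in WT and 0.27 in KO. The 25 longest, from 576 bases, had 0.37 in WT and 0.79 in KO. From day 1 to day 4 the sign was opposite, with rho by coding length of -0.44 in WT and -0.50 in KO. By transcript length it was -0.14 and -0.22. This step shares the day 1 libraries. Rpl5 (891 bases) did not follow the pattern, with changes of -0.42 in WT and -0.21 in KO that did not pass the test. The median change at day 1 was 0.10 in WT for the 25 members with a run within 5 bases of the annotated start and 0.13 for the 31 without. In KO these medians were 0.50 and 0.48. The starts were not measured in these cells, so this split cannot show whether the pyrimidine run matters.

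**Figure D3:**
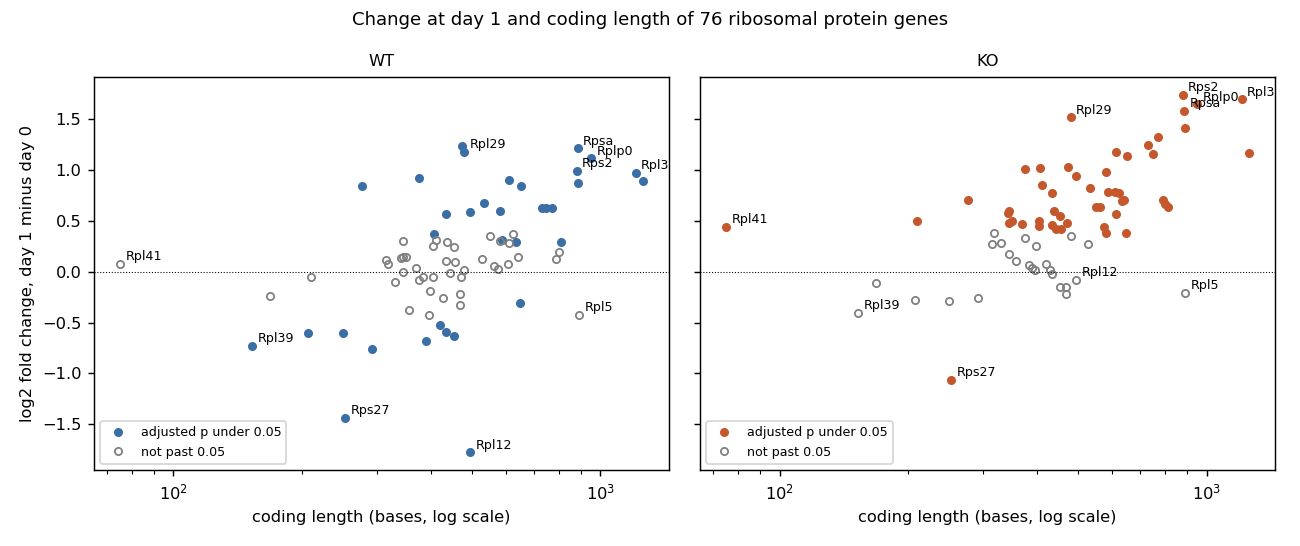
Coding length in bases (log scale, horizontal) and log2 fold change from day 0 to day 1 (vertical) of each of the 76 members, in WT (left) and KO (right). Filled points passed an adjusted p of 0.05, open grey points did not. Spearman's rho was 0.53 in WT and 0.61 in KO, with Rpl3, Rplp0 and Rpsa at the upper right and Rps27 low in both panels, with Rpl12 lowest in WT only.

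By day 4 deposited values of nearly all members were below those of uninjured cells. In WT 73 of 76 fell (18.9% of all genes fell) and 1, Rpsa, rose (25.7% of all genes rose), and the median member changed by -0.98 while the median of all genes changed by 0.23. In KO 71 fell (18.2%) and none rose (22.3% of all genes rose), with a median of -1.01. The count of 0 is from limma, with 0 also at an unadjusted p under 0.05 and 0 by edgeR and DESeq2. This direction depended on how libraries were scaled. Quantile normalization gave 27 higher and 12 lower in WT (median 0.115) and 15 higher and 18 lower in KO (median -0.0245). Members that were lower under both scalings included Rps27, with deposited values of 164 to 190 in WT and 178 to 215 in KO at day 4 and log2 fold changes of -2.40 and -2.50 from day 0 (adjusted p = 3.1e-11 and 1.7e-11). Under quantile normalization these were -1.37 and -1.44. Rps19, whose human counterpart is the gene most often mutated in Diamond-Blackfan anaemia, and Rps14, which is lost in the 5q- syndrome, were also lower under both: Rps19 fell by 1.77 in WT and by 2.02 in KO, and Rps14 by 1.82 and by 2.01. Under quantile normalization the changes were smaller, -0.527 and -0.973 for Rps19 and -0.585 and -0.837 for Rps14. Rpsa had 713 to 840 in WT at day 4, above all 4 uninjured WT libraries (0.31 ± 0.12, adjusted p = 0.037 by limma; DESeq2 also called 1 member higher, and edgeR 0), and 749 to 894 in KO, which overlapped with uninjured KO (0.07 ± 0.12, adjusted p = 0.66). Under quantile normalization these changes of Rpsa were 1.52 and 1.26.

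Relative to the median member, 24 members rose and 16 fell between days 0 and 4 in WT and 25 and 20 in KO. The same centring called 59.1% of all genes higher and 5.95% lower in WT, and 58.6% and 5.24% in KO. Rpsa was the highest on this scale in both genotypes (1.34 in WT and 1.12 in KO, adjusted p = 3.8e-11 and 9.6e-10), and Rps27 the lowest (-1.38 and -1.45).

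Between days 1 and 4 in WT 71 members fell (22.6% of all genes) and 0 rose (27.8%), with a median of -1.15, and in KO 75 fell (23.4%) and 0 rose (26.2%), with a median of -1.60. Neither count of 0 changed with edgeR or DESeq2, and 0 members rose at an unadjusted p under 0.05. Quantile normalization gave 9 higher and 24 lower in WT (median -0.0853) and 9 higher and 29 lower in KO (median -0.219). Among the largest falls in WT, Rpl4 fell by 1.92, Rps25 by 1.85 and Rplp0 by 1.83. Among those in KO, Rplp0 fell by 2.66, Rpl13 and Rpl10 by 2.36 each and Rpl3 by 2.33. Rplp0 in KO went from 2921 to 3533 at day 1 to 462 to 573 at day 4. Rpl12 in WT stayed low, at 48.5 to 55.4 (0.08 ± 0.16, adjusted p = 0.71), although under quantile normalization it rose by 0.59. Centred on the median member, 13 rose and 32 fell in WT, and 15 and 36 in KO, where 53.9% and 65% of all genes were called higher and 7.55% and 5.55% lower. With centring on the mean of the members these were 21 and 21 in WT and 22 and 30 in KO.

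In the comparison of genotypes at day 1, deposited values of the members were higher in KO than in WT as a family. Of 76, 57 passed the test as higher (7.12% of all genes) and 0 as lower (2.08%; 0 members also at an unadjusted p under 0.05 and by edgeR and DESeq2), and the median difference was 0.60 against -0.03 over all genes. All 4 KO libraries lay above all 4 WT libraries for 64 members, as they did for 13.9% of all genes. By subunit, 25 of 30 small and 32 of 46 large subunit genes were called. The largest difference was in Rps19, with 936, 1157, 1196 and 1353 in WT and 1913, 2324, 2413 and 2765 in KO (1.02 ± 0.14, adjusted p = 1.3e-05). Rpl12 (0.92 ± 0.16, adjusted p = 0.00028), Rpl13 (0.90 ± 0.11, adjusted p = 1.9e-06) and the X-linked Rps4x (0.88 ± 0.14, adjusted p = 0.00015) followed. Rpl5 and Rpl30 stood apart from the family. Rpl5, which carries 5S rRNA into the large subunit with Rpl11, had 92.1 to 121 in WT and 97.7 to 107 in KO (-0.05 ± 0.18, adjusted p = 0.99). Rpl30 had 263 to 415 in WT and 279 to 424 in KO (-0.01 ± 0.18, adjusted p = 1). The count fell to 35 without replicate 3 of WT or replicate 4 of KO, and quantile normalization left 6 higher with a median of 0.238. DESeq2 called 40 and edgeR 55. Deposited values carry the authors' scaling factor, which at day 1 was 1.09 to 1.15 in WT and 0.890 to 0.938 in KO. Shares of counts, which do not use that factor, overlapped (4.66% to 6.03% in WT and 5.94% to 7.66% in KO). The part of the factor in the genotype difference was not tested.

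Centred on the median member, 4 members were higher (1.52% of all genes) and 3 lower (9.55%) in KO at day 1. The higher ones were Rps19 (0.42, adjusted p = 0.00032), Rpl13 (0.30), Rps4x (0.28) and Rps14 (0.24). The lower ones included Rpl30 (-0.61, adjusted p = 0.0021) and Rpl5 (-0.64, adjusted p = 0.043). Leaving out single libraries brought the count of both directions to between 2 and 5, and without a mean-variance trend 1 was called. Under quantile normalization Rps14 was at 0.113 (adjusted p = 0.55), Rps4x at 0.16 (adjusted p = 0.39) and Rpl5 at -0.376 (adjusted p = 0.34), while Rps19 (0.373, adjusted p = 0.0061), Rpl13 and Rpl30 still passed.

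Before injury 6 members were higher in KO (4.82% of all genes) and 1 lower (4.93%), and the median difference was 0.22. Those higher included Rpl32, Rpl13, Rps19 and Rps7, with differences from 0.45 to 0.55. Rpl12 was the lower one, with 134 to 197 in WT and 93.7, 94.3, 97.8 and 102 in KO (-0.78 ± 0.16, adjusted p = 0.0024). KO replicate 4, which had the highest ribosomal protein share of its group (6.32%) and the highest mitochondrial share (9.98%), weighed on this count: 2 members were called without it, 16 without KO replicate 2, 4 without KO replicate 1 and 3 without WT replicate 4. When only these 2 groups were fitted, 0 were called. Relative to the median member 7 were higher (2.43% of all genes) and 4 lower (5.91%), and the lower ones were Rpl12 (-0.97, adjusted p = 0.0013), Rpl3 (-0.41), Rpl30 (-0.39) and Rpl27. Centring on the mean gave 7 and 6.

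At day 4 no member differed between the genotypes by limma. The test called 0 of 76 in either direction, as it called 0.53% of all genes higher and 0.524% lower, while 10 members were higher and 4 lower at an unadjusted p under 0.05, and edgeR and DESeq2 called 0. The median difference was 0.14. The standard errors of single members ran from 0.09 to 0.20 (median 0.15), so small differences could not be detected. Relative to the median member 0 were higher (0.318% of all genes) and 2 lower (0.636%), Rpl30 (-0.54, adjusted p = 0.022) and Rpl11 (-0.52, adjusted p = 0.047). The mean centring called 1.

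**Figure D4:**
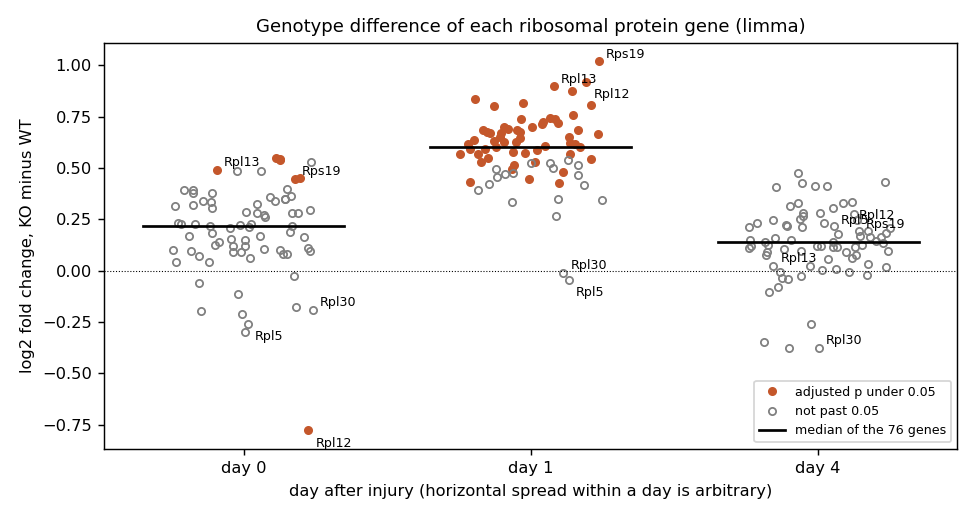
Log2 fold change of KO minus WT for each of the 76 members at days 0, 1 and 4. Filled points passed an adjusted p of 0.05, open grey points did not, and the bar is the median of the members: 0.22, 0.60 and 0.14. At day 1, 74 of the 76 points lie above 0, and Rpl5 and Rpl30 lie just below it.

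The change of the genotype difference was tested directly. From day 0 to day 1 the KO minus WT difference increased in 12 members (7.48% of all genes) and decreased in 0 (4.1%). The median was 0.38. At an unadjusted p under 0.05 it increased in 30 and decreased in 0, and it decreased in 0 by edgeR and DESeq2. An increase can be a change of sign, as in Rpl12, from -0.78 at day 0 to 0.92 at day 1. The count of 12 became 30 without KO replicate 4 of day 0, and under quantile normalization it was 1 in each direction with a median of -0.0182. The mean scaling factor in the deposited values went from 0.940 to 1.12 in WT and from 1.02 to 0.914 in KO over this step. Mean shares of counts, which do not use that factor, went from 3.87% to 5.46% in WT and from 5.01% to 6.80% in KO. The part of the factor in the median of 0.38 was not tested. From day 1 to day 4 the difference decreased in 16 (3.21%) and increased in 0 (0.759%), with a median of -0.44. It also increased in 0 at an unadjusted p under 0.05 and by edgeR and DESeq2. Leaving out any of 10 libraries brought the count of 16 to between 5 and 10. Quantile normalization left 2 with a median of -0.104, DESeq2 called 5, and without a mean-variance trend 1 was called. Centred on the median member these changes called 1 higher (2.41% of all genes) and 2 lower (5.77%) from day 0 to day 1, and 0 higher (0.877%) and 1 lower (0.459%) from day 1 to day 4. The mean centring gave 2 lower for the latter.

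Rpl12 stood out among the members in this test, with an interaction of 1.70 ± 0.22 (adjusted p = 1.6e-05), and of 1.30 relative to the median member (adjusted p = 0.0026). In WT it lost most of its level on injury, from 169 ± 27.7 to 48.3 ± 5.46, whereas in KO it had 97.0 ± 3.84 at day 0 and 91.9 ± 8.09 at day 1, groups that overlapped (-0.08 ± 0.16, adjusted p = 0.72). The next largest were Rps2 at 0.75 ± 0.17 and Rpl3 at 0.72 ± 0.14 (adjusted p = 0.0047 and 0.0011), both of which rose in WT and in KO. Under quantile normalization these were 0.273 and 0.224 and did not pass (adjusted p = 0.33 and 0.26).

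**Figure D5:**
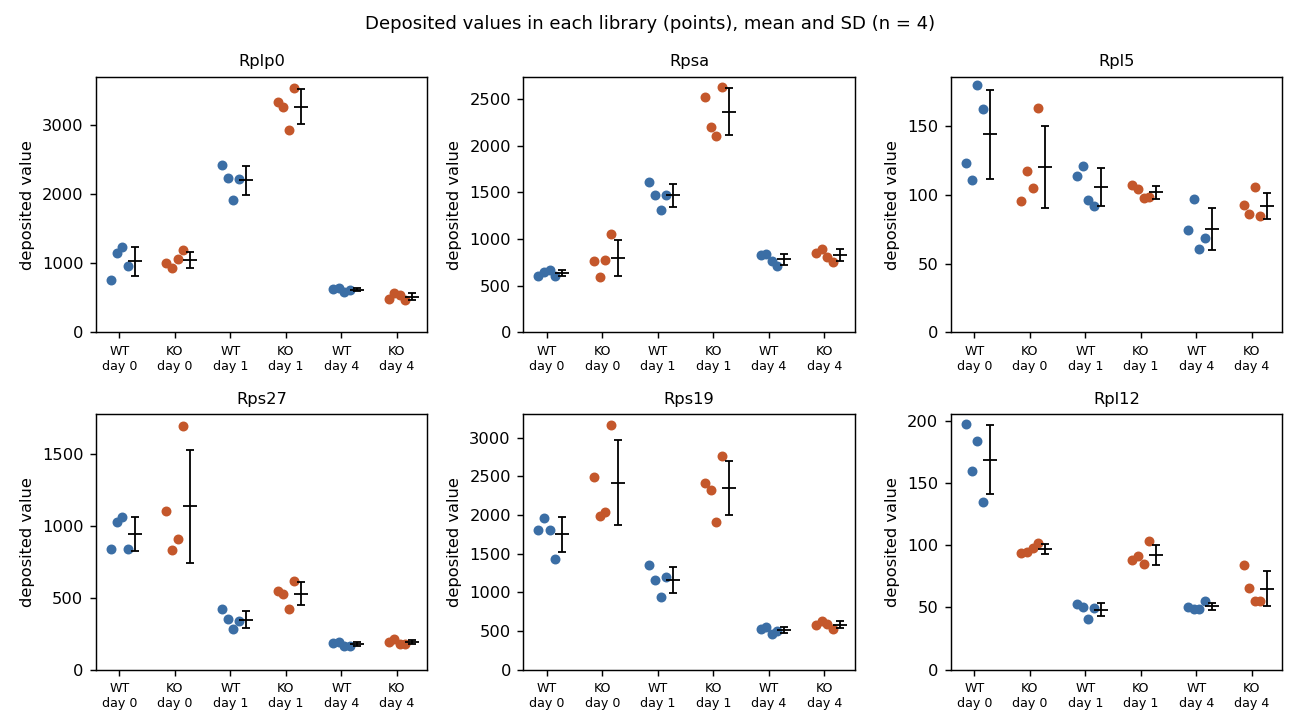
Deposited values of 6 members in every library, with mean and SD of 4 libraries beside the points (blue WT, orange KO). Rplp0 and Rpsa were highest at day 1, Rps27 fell from day 0 onward, Rps19 was higher in KO at day 1, Rpl5 differed little between genotypes at day 1, and Rpl12 was highest in uninjured WT.

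Transcripts of proteins that sit together in the ribosome changed by different amounts at day 1. In the stalk, Rplp0 carries the small acidic proteins Rplp1 and Rplp2, and at day 1 in WT Rplp0 rose while Rplp1 and Rplp2 changed by 0.14 each and did not pass the test (adjusted p = 0.52 and 0.46). In KO all 3 rose, by 0.58 to 1.65 (24.2% of all genes rose). All 3 fell from day 1 to day 4 in both genotypes (22.6% of all genes in WT and 23.4% in KO), like nearly all members. The ratio of Rplp0 to the mean of Rplp1 and Rplp2 was 1.84 to 2.95 in uninjured WT and 4.75 to 5.26 at day 1, and 1.72 to 2.60 and 4.23 to 5.09 in KO, with no overlap in either genotype. In the 5S particle the ratio of Rpl11 to Rpl5 was 0.799 to 1.37 at day 0 and 1.97 to 2.71 at day 1 in WT, and 1.27 to 1.90 and 2.82 to 3.92 in KO. Of 9 proteins in or around the exit tunnel, 1 rose (Rpl19) and 1 fell (Rpl39) in WT at day 1 (27.7% and 24.9% of all genes), and 5 rose in KO (24.2%). All 9 fell from day 1 to day 4 and from day 0 to day 4 in both genotypes, as did nearly all members in deposited values. Summed over all its members, the small subunit amounted to 0.767 to 0.803 of the large subunit in uninjured WT, 0.679 to 0.699 at day 1 and 0.760 to 0.776 at day 4. The corresponding ratios in KO were 0.786 to 0.858, 0.703 to 0.728 and 0.775 to 0.787, so in both genotypes the day 1 libraries lay below those of the other days.

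Per kb of annotated transcript, deposited levels differed widely although the proteins are made in like amounts. Averaged over the groups, Rpl41 (2374 per kb), the shortest protein of the ribosome, Rps19 (2312), Rps14 (2211), Rpl13 (1923) and Rps18 (1909) were highest. Rpl27a (140.0), Rpl21 (120), Rps20 (78.6), Rpl12 (70.0) and Rpl5 (52.1) were lowest. The highest member exceeded the lowest 34.9-fold in KO at day 4 and 77.7-fold in KO at day 1. The order depends on the transcript length used, here that of the principal coding transcript: for Rps20 that transcript has 3706 bases, of which 357 are coding. Reads of ribosomal protein genes can also be divided with their many processed copies in the genome. The 40 annotated pseudogenes in the table took 0.075% to 0.32% of counts, so levels of single members are uncertain by an amount the table does not give. Of the 39 pseudogenes tested, 8 rose and 7 fell in WT at day 1, 20.5% and 17.9% against 27.7% and 24.9% of all genes.

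The paralogs set apart and the other copies followed their own courses. Rps27l, a p53 target that differs from Rps27 in a few residues, had 242 to 290 in uninjured WT and 324 to 493 at day 1 (0.63 ± 0.15, adjusted p = 0.0015) and rose by 0.93 in KO (adjusted p = 2.7e-05), the opposite direction to Rps27 over the same step. Rps27rt, a retrocopy of Rps27, fell with it (-1.81 in WT and -1.14 in KO, adjusted p = 1.6e-06 and 0.00060), and reads of these near-identical genes may be divided between them. Rpl22l1, the paralog of Rpl22, fell by 0.94 in WT at day 1 (adjusted p = 4.4e-05), while Rpl22 did not pass the test. Rpl7l1 rose by 1.68 in WT and 2.31 in KO, and Rpl36al by 0.59 and 1.28. Rps4l, a copy of Rps4x, had values of at most 10.9 in any library and passed in no comparison of deposited values, though relative to the median member it was higher at day 1 in WT (1.59, adjusted p = 0.043) and at day 4 in both genotypes. Fau, which encodes a further ribosomal protein as a fusion, was higher in KO at day 1 like most members (0.62, adjusted p = 0.0070). So was Rack1, the signalling scaffold on the small subunit (0.66 ± 0.10, adjusted p = 3.5e-05). Under quantile normalization these were 0.298 and 0.236 and did not pass (adjusted p = 0.27 and 0.093).

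Other transcripts of the TOP class were counted in the same way, beside 27.7% of all genes that rose and 24.9% that fell in WT at day 1, and 24.2% and 21.5% in KO. Of 24 such genes, chiefly elongation and initiation factors, 15 rose and 4 fell at day 1 in WT, 20 rose and 1 fell in KO, and 13 were higher and 0 lower in KO than WT at day 1 (7.12% and 2.08% of all genes), with Pabpc1, the poly(A)-binding protein, at 1.26 ± 0.11 (adjusted p = 1.8e-08), a gene that fell by 1.05 in WT at day 1. Between days 1 and 4, 18 fell in WT (22.6% of all genes) and 22 in KO (23.4%). Escort and import factors, which keep free ribosomal proteins soluble and carry them to the nucleus, rose in 10 of 16 cases in WT and 14 of 16 in KO at day 1. Grwd1, the chaperone of Rpl3, rose by 4.44 in KO (adjusted p = 2.2e-10), and Bccip, the chaperone of Rpl23, by 2.76 in WT and 1.94 in KO. Of 8 hibernation and recycling factors 7 rose in WT and 6 in KO, with Denr, which recycles the small subunit, at 3.22 and 3.32. Genes that control ribosomal protein expression or TOP translation were mixed, with 4 up and 7 down of 20 in WT and 7 up and 3 down in KO. Myc, an activator of ribosomal protein genes, did not pass the test in WT at day 1 and rose by 0.60 in KO (adjusted p = 0.025), a call that was lost under alternatives that included quantile normalization (0.213, adjusted p = 0.43) and without KO replicate 4 of day 0 (0.372, adjusted p = 0.14). Larp1 was lower in KO at day 0 (-0.77 ± 0.16, adjusted p = 0.0024), and Eif4ebp1, the mTORC1 target that holds back cap-dependent translation, was lower in KO at day 0 (-1.13) and higher at day 1 (0.73), an interaction of 1.87 ± 0.24 (adjusted p = 8.5e-06). When only the 2 groups were fitted, the day 0 differences of Larp1 and Eif4ebp1 did not pass (adjusted p = 0.14 and 0.085), and under quantile normalization the day 1 difference of Eif4ebp1 was 0.426 (adjusted p = 0.15), while the interaction was 1.35 and passed. Of 14 ribosome rescue and quality control genes 5 rose and 5 fell in WT, and of 10 nucleolar stress and MDM2-p53 genes 3 rose and 2 fell (30% and 20%), near the shares of all genes.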

How the data were processed

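Per the labels' protocols, bulk RNA libraries were made with SMART-Seq v4. FastQC, STAR, RSEM, limma and mouse build mm39 are named in the submitters' processing notes, without versions or roles. The deposited signal table holds linear values of 17111 genes in 24 libraries. Each value equals a whole read count plus 0.5, divided by the library's size in M reads after a scaling factor, and 100% of values came out whole within 0.02. From these, log2(value + 1) was fitted with limma 3.58.1 (R 4.3.3), all 6 groups together with a mean-variance trend, two-sided, with Benjamini-Hochberg adjustment over 16985 genes in each of 11 contrasts; 126 genes were left out for having a value of at least 1 in fewer than 4 libraries. Fold changes are on the log2(value + 1) scale. A second fit subtracted each library's median over the 76 members. Alternatives included count models fitted to the recovered reads (edgeR 4.0.16, DESeq2 1.42.0), quantile normalization, other pseudocounts and filters, a replicate block and each library left out. The fits were tested on simulated data. Named genes were the 4 largest changes in each direction past the threshold per contrast, genes listed by name, the paralogs, and the leading genes of the other lists. The members and lists were chosen with earlier results of these data known. Rps3a1, Rpl37rt and Rps12l1, further ribosomal protein genes and copies, were not among the members. Some genes that entered the counts are not reported here by name. Promoters are from RefSeq (GRCm38.p6) and lengths from GENCODE on GRCm38, a build other than the authors', so no coordinate was joined to the counts.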

Additional observations from a re-analysis of the deposited data

Results flagged for a closer look

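Among 162 groups of 4 libraries tested for a value far from the other 3, 4 were found, where chance gives about 1 in 20. Rplp2 in uninjured WT was 310.2 in replicate 4 and 396 to 412.1 in the others. In uninjured KO, replicate 4 was high for Rpl22 (251 against 146.2 to 157) and for Rps2 (214.2 against 156.9 to 160.7). Rps27l in WT at day 4 was 124.9 in replicate 3 and 155.1 to 158.9 in the others.

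The difference between the genotypes changed between days by a test of the interaction (limma, adjusted p under 0.05). From day 0 to day 1 the KO minus WT difference increased in 12 members (7.48% of all genes). The largest values were in Rpl12 (1.7), Rps2 (0.748), Rpl3 (0.723) and Rpl13a (0.711). From day 1 to day 4 it decreased in 16 members (3.21%). The largest values were in Rpl13 (-0.876), Rplp0 (-0.835), Rps19 (-0.828) and Rpl11 (-0.816). The sign of the difference itself changed in Rpl12, Rps2 and Rpl3 from day 0 to day 1, and in Rplp0 and Rpl11 from day 1 to day 4. Rps2 and Rpl3 were lower in KO at day 0 by amounts that did not pass the test. Most of these calls were lost under quantile normalization, among them Rps2 (0.273) and Rpl3 (0.224), while Rpl12 still passed.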

How the results depend on the processing

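Of the counts of members called, 102 of 121 stayed within 1.5 times their value under alternatives other than leaving out a library, as did 111 of 121 medians within their spread. Quantile normalization moved most: it called 12 members in KO against WT at day 0 and 6 at day 1 (median 0.238), 39 between days 0 and 4 in WT (27 higher and 12 lower, median 0.115) and 33 in KO (median -0.0245), 33 between days 1 and 4 in WT (median -0.0853) and 38 in KO (median -0.219). It gave a median of 0.114 between days 0 and 1 in KO, and for the genotype difference 2 members from day 0 to day 1 (median -0.0182) and 2 from day 1 to day 4 (median -0.104). Fitting only the groups compared called 0 in KO against WT at day 0. Without a mean-variance trend, 1 member was called there, lower in KO, 33 at day 1, and 3 and 1 for the change of the genotype difference. Library weights called 0 at day 0, 6 from day 0 to day 1 and 25 from day 1 to day 4. DESeq2 called 12 at day 0, 5 and 5 for the changes, the latter with a median of -0.295, and gave a median of -1.38 between days 1 and 4 in KO.

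Relative to one another, 103 of 132 counts stayed within 1.5 times. For KO against WT at day 0, 5 were called with a pseudocount of 5, 6 with quantile normalization, 0 in only the groups compared, 1 without the trend and 0 with library weights. At day 1, 4 were called with quantile normalization, 1 without the trend, 22 with library weights and 4 by edgeR. At day 4, 0 were called with a pseudocount of 5, without the trend and by edgeR, and 1 in only the groups compared and centred on the mean of the members. Between days, 30 were called from day 0 to day 1 in WT, 26 from day 0 to day 4 and 28 from day 1 to day 4 in WT without the trend, and 28 from day 0 to day 4 in KO in only the groups compared. For the change of the genotype difference from day 0 to day 1, 1 was called without the trend and 5 by DESeq2. From day 1 to day 4, 0 were called with a pseudocount of 5, quantile normalization, no trend and edgeR, 5 in only the groups compared, 7 with library weights, 4 by DESeq2 and 2 centred on the mean of the members. The causes were not tested. Scaling also moved the median change of all genes, most between days 1 and 4 in KO: 0.18 by limma, 0.33 by edgeR, 0.57 by DESeq2 and 0.01 with quantile normalization.

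Leaving out each library in turn gave 2 to 16 members in KO against WT at day 0, 35 to 62 at day 1, 8 to 30 for the change from day 0 to day 1 and 5 to 17 for that from day 1 to day 4. Relative to one another these were 6 to 12, 2 to 5, 2 to 5 and 0 to 2, with 0 to 2 at day 4. Values near 0 that had not passed changed sign: Rpl30 at day 1 ran from -0.144 without WT replicate 3 to 0.086 without KO replicate 3, Rpl5 at day 1 from -0.108 without WT replicate 4 to 0.0209 without WT replicate 2, Rpsa between days 0 and 4 in KO ran from -0.0569 without KO day 0 replicate 2 to 0.218 without KO day 0 replicate 4, and Rpl12 between days 1 and 4 in WT from -0.00516 without WT day 1 replicate 3 to 0.122 without WT day 1 replicate 1. Shares without mitochondrial genes were 3.202% in WT and 2.765% in KO at day 4. Libraries with the same replicate number did not deviate together (median correlation 0.0036 over 60 pairs, 1 over 0.1). With a replicate block, 1 member was called at day 4 relative to one another. Reads shared with pseudogenes limit single members.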
